A study of Saccharomyces cerevisiae with 23 samples.

Results

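The cytosolic ribosomal protein genes of Saccharomyces cerevisiae other than RPL15A were examined for the positions of new Ty1 insertions. Members were the nuclear protein-coding genes whose symbol is RPL or RPS followed by a digit in the R64 annotation, with RPL15A left out, and they numbered 131 of 6002 nuclear protein-coding genes. Of these, 75 encode large subunit proteins (RPL) and 56 encode small subunit proteins (RPS). There were 56 complete pairs of an A and a B copy, 18 genes with a single copy, and RPL15B, whose A partner was not a member and which was therefore placed in neither class.

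The ribosome of budding yeast is built from rRNA and many different proteins, and the genes for these proteins are among the most heavily transcribed by RNA polymerase II in growing cells. Most ribosomal proteins are made from an A and a B gene that remain from an ancient duplication of the whole genome, and the coding sequences of such pairs are often nearly identical. Their promoters are typically bound by Rap1, Fhl1, Ifh1 and Sfp1 and hold a wide stretch poor in nucleosomes. Ty1 is a copia-type retrotransposon of yeast whose integrase contacts RNA polymerase III, so most insertions land upstream of tRNA genes. The sites away from tRNA genes are the subject here.

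The series held 23 samples, of which 21 were MNase nucleosome samples that were not analysed here. The 2 insertion libraries came from the haploid laboratory strain BY4741, of mating type MATa and with the alleles his3delta1, leu2delta0, ura3delta0 and met15delta0, and both carried the plasmid pJEF2365, which the labels do not describe. By the treatment labels, the galactose library came from cells induced for 24 h in SC complete medium with 2% galactose. The dextrose library came from cells incubated for 24 h in SC complete medium with 2% dextrose. The growth protocol names medium without uracil instead, and which was used is not settled. Both cultures were afterwards grown in dextrose and then in dextrose with 1 mg/mL 5-FOA, which kills cells with a working URA3 gene, before DNA was taken. With 1 library for each medium there was no replicate, so no test was made, no p-value is given, and media and libraries cannot be told apart.

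A site was a distinct chromosome, strand and 5′ end of an aligned interval. The labels do not say which end of the interval is the junction with Ty1. Sites were counted in the gene body, from start codon to stop codon with introns included, and in the 1 kb upstream of the start codon, in both cases only at positions more than 2 kb from each of the 275 nuclear tRNA genes. The galactose library held 152129 nuclear sites, 69370 of them beyond 2 kb of a tRNA gene, and the dextrose library held 11208 and 7974. The galactose library was therefore 8.70 times as deep over the positions used. Sites beyond 2 kb were the smaller part of the galactose library but the larger part of the dextrose library. The reason for this difference was not tested, nor whether the dextrose sites stand for new Ty1 insertions. A count of 0 was read as allowing up to 3 sites in either library, and its exact 95% interval reaches 3.69. The value of 3 is 0.00432% of the sites used in galactose and 0.0376% of those in dextrose. Of the 131 members, 127 had some countable body and 129 some countable upstream sequence. RPL30, RPS25B, RPL26A and RPS7B had no countable body, and RPS25B and RPL26A also had no countable upstream sequence. Ranges in parentheses are 95% intervals. They cover only the error of counting, because reads copied by PCR and lacking molecular identifiers need not stand for separate molecules.

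Taken as a group, the members carried Ty1 sites at close to the density of other genes. In the galactose library their bodies held 547 sites (502 to 595), or 5.70 per kb, against 5.34 per kb over the other protein-coding genes, a ratio of 1.07 (0.980 to 1.16). In the dextrose library the bodies held 56 sites (42.3 to 72.7), or 0.583 per kb, against 0.718 per kb, a ratio of 0.812 (0.613 to 1.06). Upstream, the galactose library had 996 sites (935 to 1060), or 7.83 per kb, against 7.72 per kb in other genes, a ratio of 1.01 (0.952 to 1.08). The dextrose library had 99 upstream sites (80.5 to 121), or 0.778 per kb, against 0.738 per kb, a ratio of 1.05 (0.855 to 1.29). All 4 of these intervals include equal density, though other settings moved the bounds. With sites of 1 strand within 5 bp merged, the galactose body ratio was 1.14 (1.04 to 1.25). It was 1.11 (1.01 to 1.21) beyond 5 kb of tRNA genes and 1.09 (1.01 to 1.17) with the 3′ end. Without a limit on tRNA distance it was 0.851 (0.782 to 0.924). Among intervals with the highest mapping score, 60, the dextrose body ratio was 0.711 (0.523 to 0.944). The body ratio in galactose depended on a gene that the rule leaves out: RPL15A alone held 58 galactose and 4 dextrose sites in its body, at 17.7 times the galactose density of other genes, and adding it gave a ratio of 1.17.

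The members' share of each library was also similar in the media. Member bodies took 0.789% of sites in galactose and 0.702% in dextrose, a difference of 0.0862 percentage points (−0.132 to 0.261). Member upstream regions took 1.42% of sites in galactose and 1.24% in dextrose, a difference of 0.178 percentage points (−0.102 to 0.417). Of the dextrose body sites, 27 of 56, or 48.2%, had the same position and strand as a galactose site, and for other genes this share was 49.2%. Some recurring positions came as close ends on opposite strands, each counted as a site. The only body sites of RPL37A in either library were at 523154 (plus strand) and 523159 (minus strand), all with intervals of 78 bases. How many sites have this form was not counted. The share expected from site density alone was not computed, and why positions recur was not tested. Much of the dextrose count is thus shared with galactose, and a common direction in the libraries is not separate support.

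Within the group, genes ranged widely. In the galactose library a countable body held between 0 and 25 sites with a median of 4, and a countable upstream region held between 0 and 39 with a median of 7. At least 500 bp of countable body was present in 105 members. Of these, 9 had a galactose density at least 2 times that of all protein-coding genes, and 8.08% of all genes of that length did. A body with 0 galactose sites occurred in 10 of the 105, against 4.78% of all genes, but member bodies were shorter, with a median of 833 bp against 1359 bp. Upstream, 7 of 128 members had at least 2 times the density of all genes, beside 6.59% of all genes, and 4 had 0 sites, beside 3.01%. The 4 were RPL24A, RPL30, RPL40A and RPS6A, of which RPL24A and RPL30 had only 781 and 625 bp countable. In the dextrose library 19 of 105 bodies passed 2 times the density (18.4% of all genes) and 68 had 0 sites (39.2%). For dextrose upstream regions the counts were 26 of 128 (17.8%) and 63 of 128 (50.5%).

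**Figure D1:**
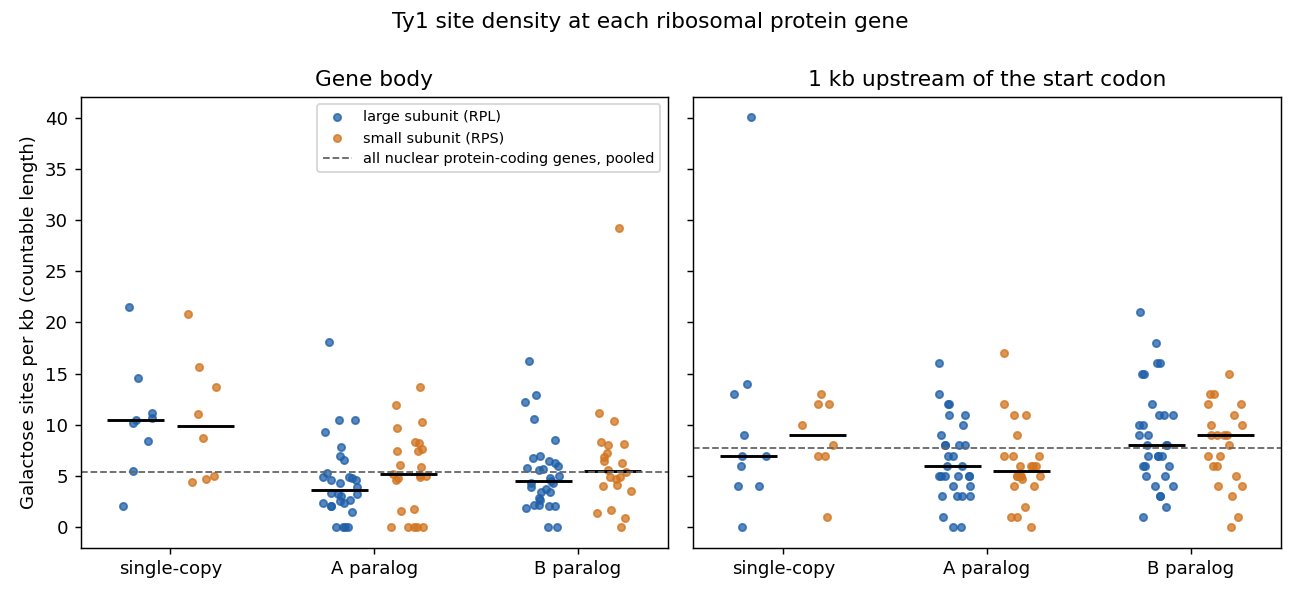
Galactose Ty1 sites per kb of countable length in the body (left) and in the 1 kb upstream (right) of each ribosomal protein gene, by copy class and subunit. Each point is a gene, black bars are medians over genes, and the dashed line is the pooled density of all nuclear protein-coding genes. Single-copy bodies sit mostly above the line, with RPL3 highest among them at 25 sites, and RPL38 stands highest upstream with 39 sites.

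The clearest division inside the group was between genes with a single copy and genes with a paralog. In the galactose library, the 17 single-copy genes with countable bodies held 115 sites in 10.727 kb, and the paralog pairs held 429 sites in 84.671 kb. These are 10.7 and 5.07 sites per kb, a ratio of 2.12 (1.71 to 2.61). Relative to other protein-coding genes, single-copy bodies were at 2.01 times the density (1.66 to 2.41) and paralog bodies at 0.950 times (0.862 to 1.04). The dextrose library had 11 sites in single-copy bodies and 45 in paralog bodies, a ratio of 1.93 (0.900 to 3.79), in the same direction but with an interval that includes 1. A countable body with 0 galactose sites occurred in 0 of 17 single-copy genes and 13 of 109 paralogs, or 11.9%, beside 7.97% of the other genes, whose bodies were longer. In both subunits the single-copy genes were above other genes, at 2.14 times (1.65 to 2.71) for the large subunit and 1.86 times (1.37 to 2.46) for the small subunit.

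How well reads could be placed differed between the same classes. Of the galactose intervals in single-copy bodies, 99.3% had the highest mapping score of 60, against 81.6% in paralog bodies and 99.6% in other genes. The share was 76.4% in A bodies and 86.5% in B bodies. The lowest score in the files was 30. Both copies of RPL1, which forms the mobile stalk beside the exit site, and both copies of RPL4, which lines the exit tunnel, had 0 galactose body sites. The part that read placement plays in these 0 counts and in the single-copy to paralog ratio was not tested. Paralog bodies as a whole were at 0.950 times the galactose density of other genes (0.862 to 1.04). Among intervals scored 60 alone, the single-copy to paralog ratio was 2.51, and the ratio of all members to other genes was 0.932. This setting dropped intervals, more of them in paralog bodies, but kept the countable length unchanged. These ratios therefore cannot measure the part of read placement. In single-copy bodies 137 of 138 intervals had the score of 60.

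RPL3, whose product shapes the peptidyl transferase centre, carried the most body sites. It lies on chromosome XV at 444686 to 445849 on the plus strand and had 25 galactose sites (16.2 to 36.9) and 2 dextrose sites in 1164 bp, 4.02 times the galactose density of all genes. These sites ran along the whole body on both strands, with at most 6 in any 100 bp. Without RPL3 the single-copy to paralog ratio was 1.86 (1.46 to 2.34), so it did not rest on that gene alone.

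RPL5, the partner of the smallest rRNA of the large subunit, had 13 galactose body sites (6.92 to 22.2) and 1 dextrose site, a galactose density 2.72 times that of all genes, on chromosome XVI at 303121 to 304014. RPS2, a small subunit protein that takes part in accurate decoding, had 12 galactose sites (6.20 to 21.0) and 2 dextrose sites, at 2.93 times the density, on chromosome VII at 277617 to 278381. Both belong to the single-copy class. RPS3, which lines the path by which mRNA enters the ribosome, had 8 galactose sites and 1 dextrose site, at 2.07 times the density. It and RPS12, with 9 galactose sites in a 432 bp body and none in dextrose, were picked after their values were seen. At the low end of the single-copy class RPL28 had 2 galactose sites in 961 bp and 1 dextrose site.

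Among paralogs, RPS18A on chromosome IV at 1359923 to 1360798 had 12 galactose body sites (6.20 to 21.0) and 0 dextrose sites, at 2.56 times the density of all genes. RPL33B on chromosome XV at 778555 to 779405 had 11 galactose sites (5.49 to 19.7) and 0 dextrose sites, at 2.42 times. Sites a few bp apart on 1 strand count separately in both genes. Examples are 510 and 511 bp from the start codon in RPS18A, and 846, 847 and 850 bp in RPL33B. The setting that merged such sites was not applied to single genes. Several members had 9 galactose body sites (4.12 to 17.1), and the 3 that come first by systematic name are given here. They were RPS16B with 1 dextrose site, RPL12A with 0, whose product sits at the base of the ribosomal stalk, and RPS0A with 0, whose product is needed for maturation of the small subunit.

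**Figure D2:**
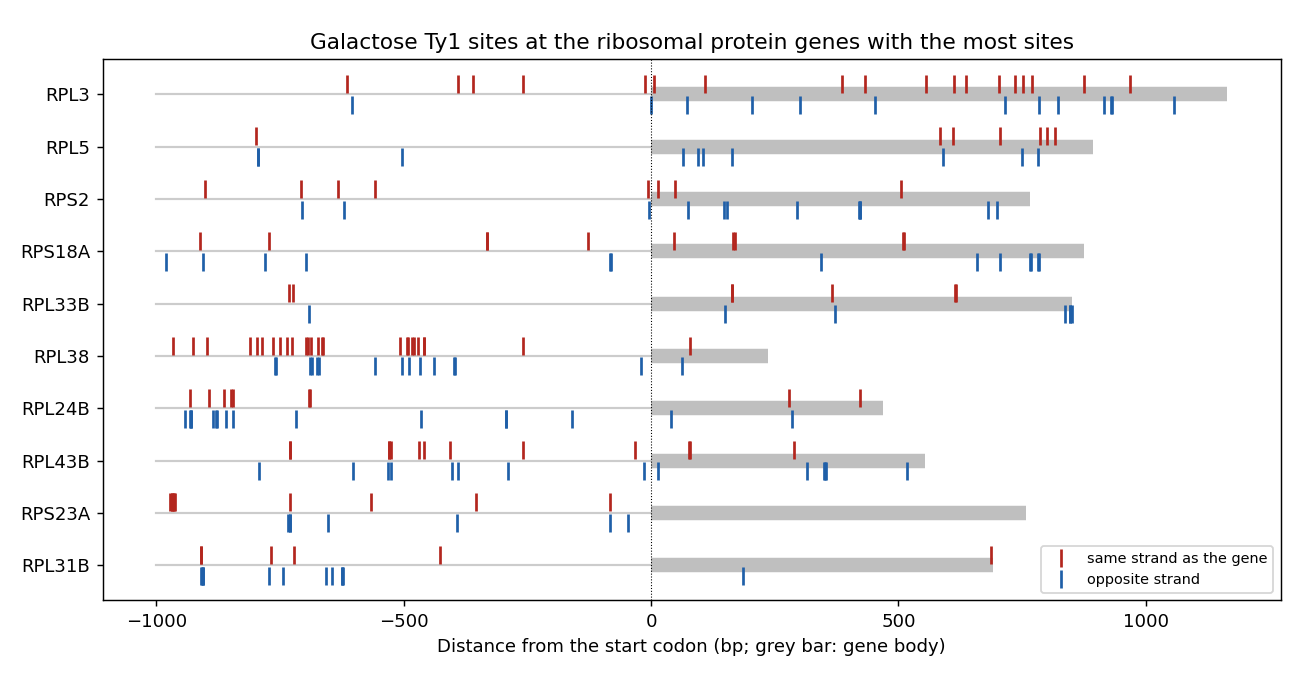
Galactose Ty1 sites at 10 ribosomal protein genes with many sites, by distance in bp from the start codon (negative is upstream). Each tick is a site, red above the line on the gene's strand and blue below it on the opposite strand, and grey bars are gene bodies. RPL3 has 25 sites spread over its body, whereas RPL38 has 39 and RPL24B has 21 upstream, many of them close together.

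Upstream counts were led by RPL38, a single-copy gene for a small protein of the large subunit, on the minus strand of chromosome XII at 781143 to 781379. It had 39 galactose sites (27.7 to 53.3) and 0 dextrose sites in its 1 kb upstream, at 5.19 times the galactose density of all genes. Of these, 15 fell from −763 to −665 bp relative to the start codon, at 782044 to 782142 in sequence with no annotated protein-coding gene. The nearest tRNA gene was 2212 bp from that window, just past the 2 kb limit, and the part of that nearness in the count was not tested.

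RPL24B, which helps bridge the subunits, had 21 galactose upstream sites (13.0 to 32.1) and 0 dextrose sites, at 2.72 times the density. Its gene lies on the minus strand of chromosome VII at 787312 to 787779. Here 14 sites fell from −942 to −844 bp relative to the start codon, at 788623 to 788721, outside annotated protein-coding genes and 5696 bp from the nearest tRNA gene. RPL43B on chromosome X at 608305 to 608858 had 18 galactose upstream sites (10.7 to 28.4) and 9 body sites, with 0 dextrose sites in both, at 2.33 and 3.04 times the density of all genes. RPS23A, a protein of the decoding centre, combined 17 upstream sites in galactose and 2 in dextrose with 0 body sites in 757 bp in both libraries. RPL19A, RPL31B and RPL18B had 16 galactose sites each upstream, with 3, 2 and 0 dextrose sites in that order, and RPL12B had 15 with 0.

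The upstream excess of single-copy genes rested on RPL38. With it, single-copy genes had 9.83 galactose sites per kb upstream against 7.48 in paralogs, a ratio of 1.31 (1.11 to 1.55). Without it the values were 8.06 and 7.48 per kb, a ratio of 1.08 (0.891 to 1.30). The strand of the single-copy upstream sites was uneven in galactose. On the gene's own strand lay 61.8% (54.2 to 69.1) of the single-copy upstream sites, and 61.2% (52.4 to 69.5) without RPL38, against 47.9% (44.4 to 51.4) for paralogs and 49.8% for other genes. In dextrose 5 of 13 single-copy upstream sites, or 38.5% (13.9 to 68.4), were on the gene's strand, which is the other direction with an interval that includes 50%. In galactose bodies, 43.5% (34.3 to 53.0) of single-copy sites were on the gene's strand. The values were 43.8% (39.1 to 48.7) for paralog bodies and 48.5% for other genes.

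The members with the most dextrose sites had few. RPS27B and RPL37A had 5 each over body and upstream, and RPL32, RPL36A and RPL36B had 4 each. Galactose totals for these genes were 17 for RPS27B, whose body was countable over 355 of 799 bp, 10 for RPL37A, 11 for RPL32, 9 for RPL36A and 10 for RPL36B. None of the 5 was among the 8 members with the most galactose sites in either region, although RPS27B had as many upstream, 15, as RPL12B. At counts of this size the order of genes in dextrose is not distinguishable.

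In galactose, large and small subunit genes did not differ beyond counting error as counted here, though other settings moved the bounds. Bodies held 307 sites in large subunit genes and 240 in small subunit genes, at 5.36 and 6.19 per kb, a ratio of 0.867 (0.730 to 1.03). Upstream regions held 598 and 398 sites, at 8.15 and 7.39 per kb, a ratio of 1.10 (0.970 to 1.25). Both intervals include 1. The body interval lay below 1 without RPL3 (0.813, 0.682 to 0.970), beyond 5 kb of tRNA genes (0.832, 0.697 to 0.993), with the 3′ end (0.809, 0.699 to 0.936) and with aligned intervals in place of sites (0.843, 0.721 to 0.987), and adding RPL15A gave 1.02. The upstream interval lay above 1 with intervals of 96 bases (1.28, 1.02 to 1.61) and outside protein-coding genes (1.17, 1.00 to 1.36), and without a limit on tRNA distance it lay below 1 (0.863, 0.771 to 0.965). In dextrose, large subunit bodies had 25 sites and small subunit bodies 31, a ratio of 0.547 (0.309 to 0.957), and upstream regions had 62 and 37, a ratio of 1.23 (0.805 to 1.90). The dextrose body interval lies below 1 and rests on 56 sites in all.

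A and B copies had similar body densities and different upstream densities. In galactose, A bodies held 209 sites and B bodies 220, at 4.89 and 5.25 per kb, a ratio of 0.932 (0.768 to 1.13). Upstream of A copies there were 348 sites and upstream of B copies 464, at 6.39 and 8.56 per kb, a ratio of 0.747 (0.648 to 0.860). The interval for A copies, 5.74 to 7.10 per kb, lay below the 7.72 per kb of other genes. That for B copies, 7.80 to 9.38 per kb, lay above it. This depended on interval length. With 96 bases, A copies, B copies and other genes had 1.84, 3.10 and 3.09 per kb. With 50 to 95 bases they had 4.23, 5.28 and 4.29 per kb. Without RPL24B the B copies had 443 sites and the A to B ratio was 0.768 (0.665 to 0.886). B copies without RPL24B were not set against other genes. The dextrose library had 38 upstream sites in A copies and 48 in B copies, a ratio of 0.788 (0.501 to 1.23), in the same direction with an interval that includes 1.

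The upstream difference was spread over many pairs. Of the 56 pairs, the A copy had more galactose upstream sites in 18, the B copy in 36, and 2 were equal. In the 50 pairs whose regions were wholly countable the counts were 16, 32 and 2. For bodies the corresponding counts in those 50 pairs were 21, 21 and 8. In upstream sequence outside protein-coding genes the densities were 6.48 per kb for A and 9.38 per kb for B copies. In upstream sequence that falls inside a neighbouring gene they were 6.24 per kb (5.17 to 7.46) for A and 6.77 per kb (5.59 to 8.13) for B copies, which overlap.

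**Figure D3:**
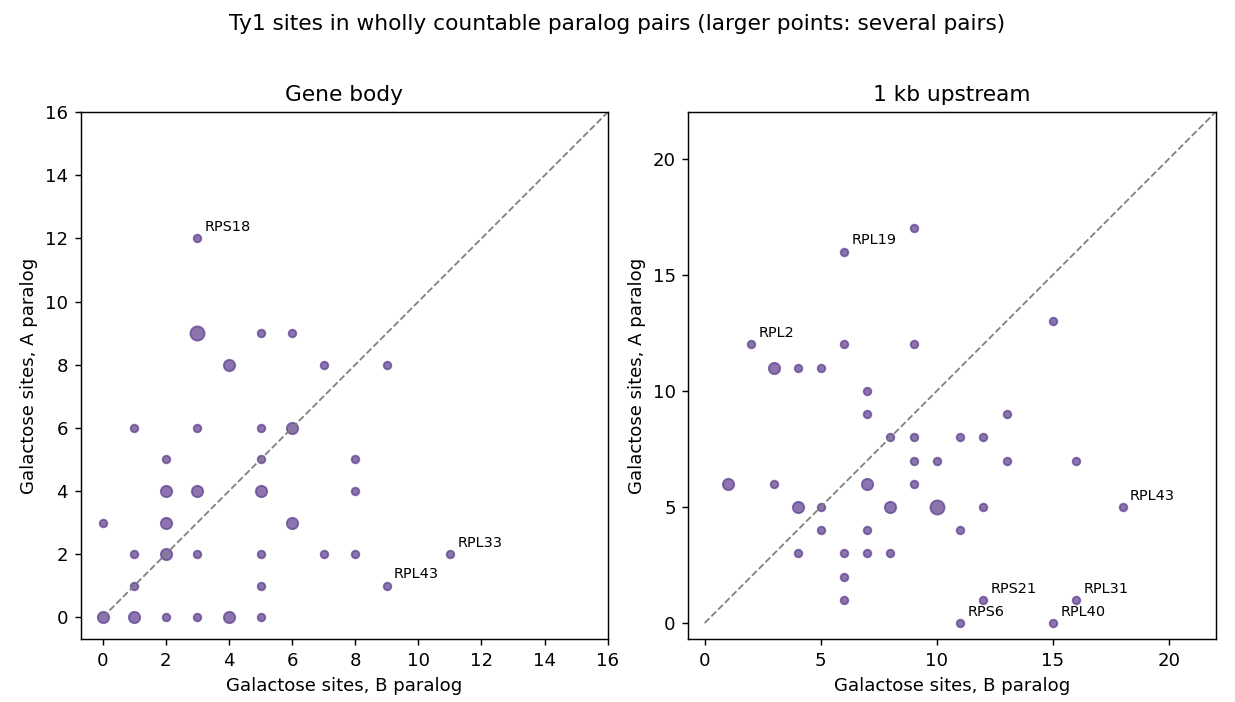
Galactose Ty1 sites in the body (left) and 1 kb upstream (right) of the A copy (vertical axis) and the B copy (horizontal axis) in the 50 wholly countable pairs. Each point is a pair, larger points are several pairs with the same counts, and the dashed line marks equal counts. Upstream, 32 pairs lie below the line and 16 above it, whereas bodies divide 21 to 21.

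Single pairs could differ in either direction. RPL43 had 6 galactose sites in the A copy and 27 in the B copy over body and upstream. RPL40, whose product is made as a fusion with ubiquitin, had 4 in the A copy and 23 in the B copy, with 0 and 15 of these upstream. RPL31, a protein at the mouth of the exit tunnel, had 3 in the A copy and 18 in the B copy. In the opposite direction, RPS18 had 23 in the A copy and 8 in the B copy, and RPL19, which takes part in a bridge between subunits, had 21 in the A copy and 8 in the B copy. These 5 were chosen as the pairs with the largest difference, so the differences are descriptions. Over the 50 wholly countable pairs, the interval for the A copy's share lay above 50% in 3 pairs and below 50% in 4.

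In galactose, the distribution of sites along the upstream region set the members apart from other genes more than their number did. Of the members' upstream sites, 46.4% (43.3 to 49.5) lay within 500 bp of the start codon, against 55.8% (55.3 to 56.3) for other genes. The contrast was larger with intervals of 96 bases, at 40.5% (35.3 to 45.9) against 59.0%. With 50 to 95 bases it was 49.4% (45.4 to 53.4) against 52.4%, which lies inside the members' interval. The far 500 bp of the window had 8.40 sites per kb against 6.84 per kb in other genes, a ratio of 1.23 (1.12 to 1.34). The near 500 bp had 7.26 against 8.60 per kb, a ratio of 0.845 (0.769 to 0.926). In dextrose 47.5% of the members' upstream sites (37.3 to 57.8) lay within 500 bp, against 48.2% for other genes. When only upstream positions outside every protein-coding gene were counted, the galactose share was 59.97% (56.3 to 63.6) for members against 73.2% (72.7 to 73.8) for other genes, so the difference kept its direction. The near 500 bp made up 68.1% of that countable length in members and 72.8% in other genes. Per kb, members were at 0.792 times the density of other genes in the near 500 bp (0.718 to 0.871) and 1.15 times in the far 500 bp (1.02 to 1.30).

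The near region held a trough. From 250 bp to just over 100 bp upstream of the start codon the members had 53 galactose sites, 2.78 per kb (2.08 to 3.64), against 7.64 per kb in other genes, a ratio of 0.364 (0.272 to 0.477). This window, and the others named here, were chosen after the profile was seen, so the values describe it. A site in the window was found in 35 of 127 members, or 27.6%, against 54.9% of other genes. Both subunits showed it, with a ratio to other genes of 0.358 (0.242 to 0.512) for large subunit genes and 0.371 (0.235 to 0.558) for small subunit genes. It was also present in each copy class, at 0.206 (0.110 to 0.353) for A copies, 0.485 (0.327 to 0.692) for B copies and 0.410 (0.177 to 0.809) for single-copy genes. Of the 53 sites, 16 were on the gene's strand and 37 on the opposite strand. The dextrose library had 10 member sites in the window, 0.525 per kb against 0.673 per kb in other genes, a ratio of 0.780 (0.372 to 1.45) that includes both 1 and part of the galactose interval.

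The trough depended on which end of the interval was taken as the site. With the 3′ end, the same window gave a ratio of 1.00 (0.854 to 1.17). By interval length the trough was present in both classes, with 11 sites and a ratio of 0.188 (0.0935 to 0.336) among intervals of 96 bases, and 0.522 (0.374 to 0.710) among those of 50 to 95 bases. Intervals of 96 bases made up 27.9% of the members' galactose upstream intervals and 33.6% of those of other genes.

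Next to the trough, the 100 bp before the start codon held 146 galactose sites, 11.5 per kb against 9.49 per kb, a ratio of 1.21 (1.02 to 1.43). Its direction was not stable. Intervals of 50 to 95 bases gave 108 sites and a ratio of 1.68 (1.37 to 2.03), whereas intervals of 96 bases gave 32 sites and a ratio of 0.650 (0.443 to 0.920), and the 3′ end gave 0.623. Within the first 100 bp of the body the members had 54 sites, 4.27 per kb against 7.13 per kb, a ratio of 0.598 (0.448 to 0.782). Between 150 and 199 bp into the body there were 62 sites, a ratio of 1.70 (1.30 to 2.19), which was 2.12 among intervals of 50 to 95 bases and 0.941 among those of 96 bases. Over the whole body, split into 3 equal lengths from the start codon, galactose density was even at 5.67, 5.79 and 5.64 per kb.

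**Figure D4:**
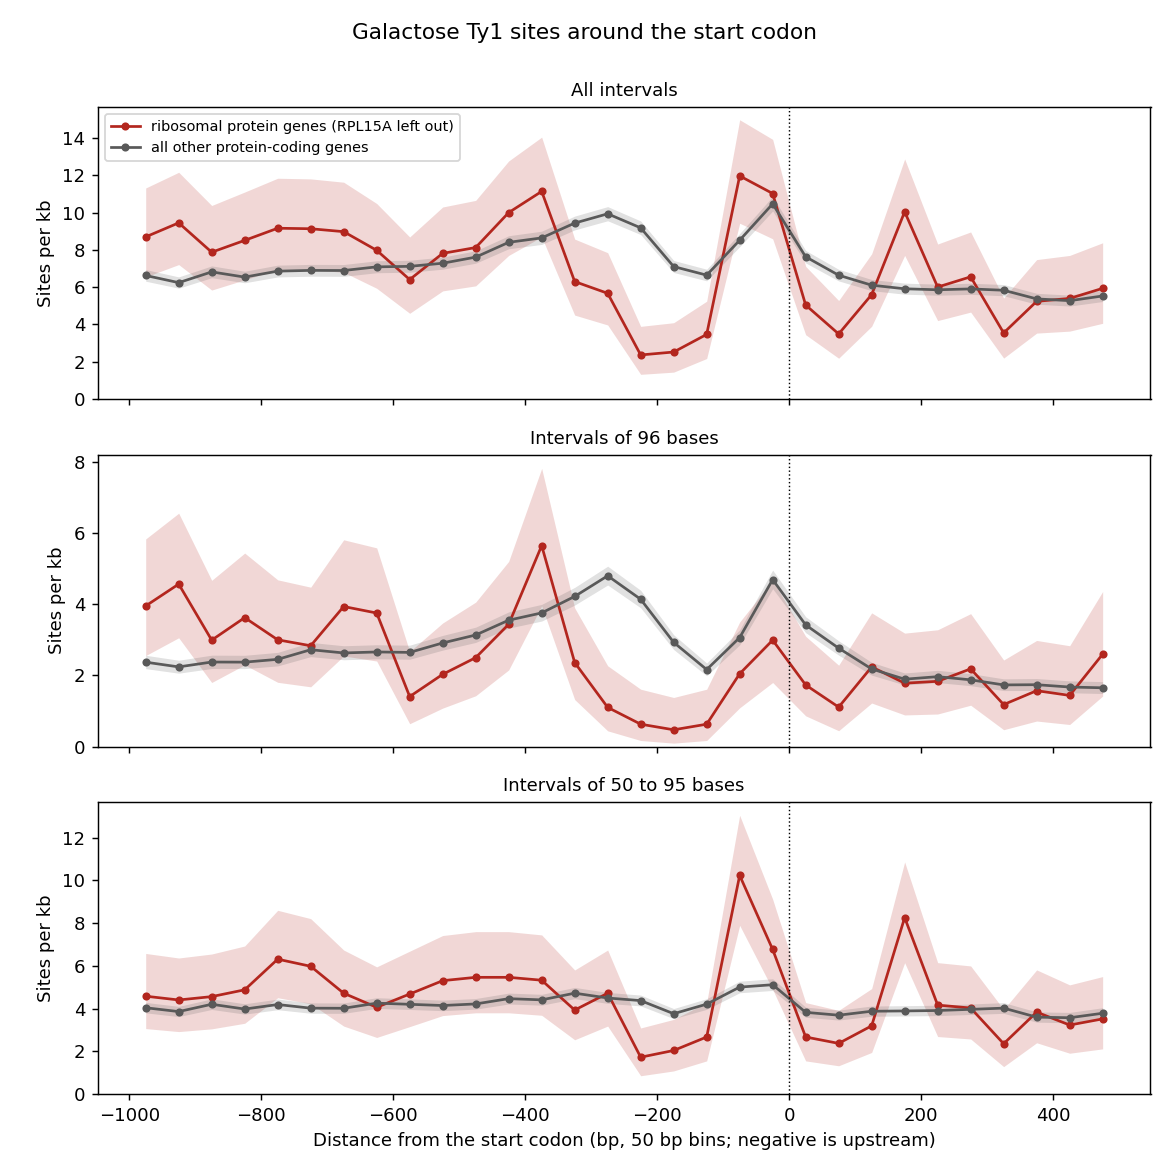
Galactose Ty1 sites per kb in 50 bp bins from 1000 bp upstream of the start codon to 500 bp downstream, for the ribosomal protein genes (red) and all other protein-coding genes (grey), with 95% counting intervals as shading. The panels show all intervals, intervals of 96 bases and intervals of 50 to 95 bases. The members drop from 250 bp to just over 100 bp upstream in each panel, and the peak in the last 100 bp before the start codon is above other genes only with the shorter intervals included.

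Related gene lists gave a scale for these ratios. In galactose, the 6 genes for the acidic stalk proteins and ASC1, which belong to the cytosolic ribosome but fall outside the symbol rule, were at 1.09 times the density of other genes in the body (0.686 to 1.66) and 1.04 times upstream (0.764 to 1.37). The 43 mitochondrial ribosomal protein genes were at 1.10 times in the body (0.924 to 1.29) and 0.811 times upstream (0.712 to 0.919). The 54 ribosome biogenesis genes were at 0.932 times (0.848 to 1.02) and 0.848 times (0.759 to 0.945). The 10 translation elongation factor genes were at 0.686 times (0.516 to 0.896) in the body and 1.17 times (0.917 to 1.47) upstream. The 11 regulators of ribosomal protein genes were at 0.878 times (0.718 to 1.06) and 1.11 times (0.891 to 1.38). The single-copy ribosomal protein bodies, at 2.01 times, lay above each of these body values.

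**Figure D5:**
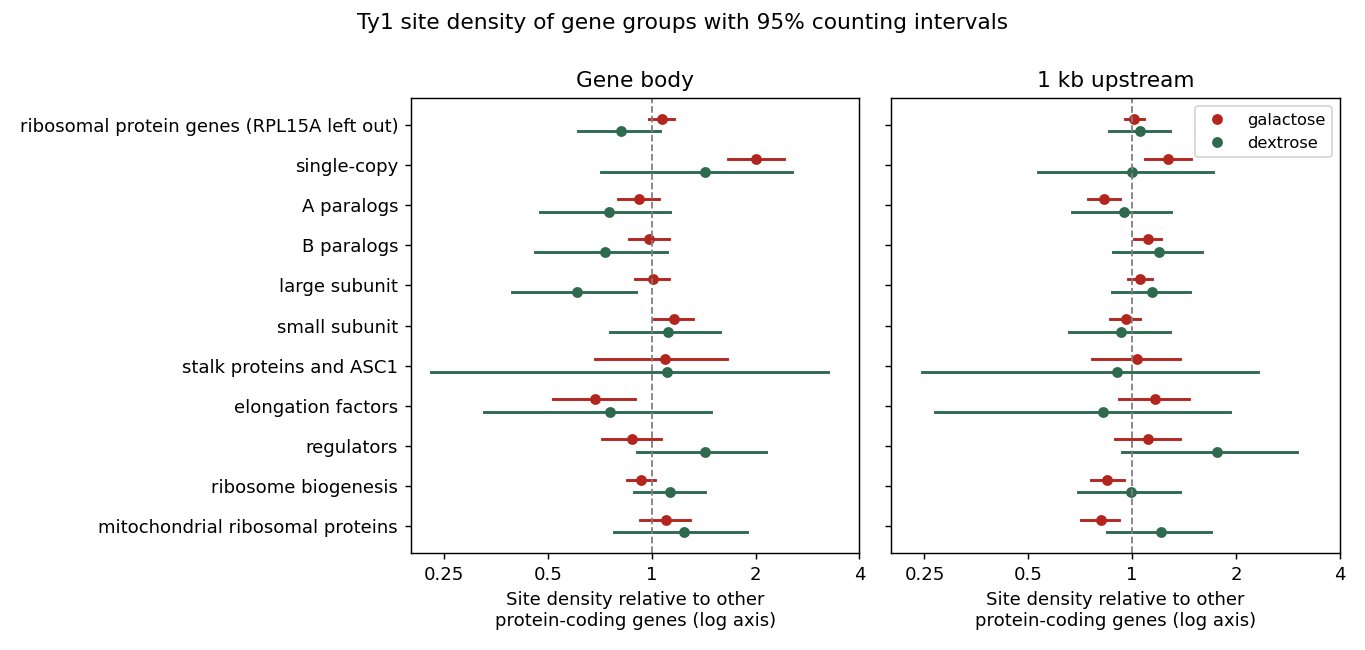
Ty1 site density of gene groups relative to other protein-coding genes, on a log axis, for the body (left) and 1 kb upstream (right), in galactose (red) and dextrose (green). Points are density ratios and lines are 95% counting intervals. Single-copy ribosomal protein bodies stand at 2.01 in galactose, and the intervals of all members together include 1 in both libraries.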

How the data were processed

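Per the labels' protocols, DNA was cut with MseI, ligated to an adaptor, cut with BglII, and PCR-amplified with primers for the adaptor and the SSB site. The submitters' processing notes name Picard 3.4.0, bedtools 2.31.1, SAMtools 1.22, BWA 0.7.19 and Trimmomatic 0.39, and the R64 (sacCer3) build, with settings not given in the sources used here. The deposited values are interval positions with no normalization and a mapping score, which ran from 30 to 60. The authors' file names say that duplicates were removed, so the number of intervals at a site does not measure how many cells carried it.

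Distinct sites were counted with Python 3.11.15, numpy 2.4.6 and scipy 1.17.1, and the counting was tested on simulated data. Gene positions came from RefSeq R64, are 1-based, and take strand from the systematic name. Upstream counts add up over genes, so a site upstream of neighbouring members counts for each. Counts have exact Poisson, shares Clopper-Pearson, density ratios conditional binomial and the share differences Newcombe intervals, at 95%.

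Named genes were the 8 members with the most galactose body sites, the 8 with the most upstream sites, the 5 with the most dextrose sites, members with 0 galactose sites in both regions with at least 500 bp in each (there were none), and the 5 pairs with the largest difference among wholly countable pairs. Members and gene lists were chosen with earlier results of these data known. SIK1 was not matched as a symbol. Alternatives covered interval length and end, distance from tRNA genes, merging, reads in place of sites, the upstream window, members left out or added and, added after seeing the data, mapping score and 2 start-codon windows.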

Additional observations from a re-analysis of the deposited data

Results flagged for a closer look

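Of 10 density ratios computed in both libraries, 3 lay above 1 in one library and below 1 in the other, and with 1 library per medium these differences were not tested. The members' body ratio to other genes was 1.07 in galactose and 0.812 in dextrose. The A to B body ratio was 0.932 in galactose and 1.03 in dextrose. The single-copy to paralog upstream ratio was 1.31 in galactose and 0.933 in dextrose, and without RPL38 it was 1.08 in galactose and 0.988 in dextrose. In each case the dextrose interval includes 1.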

How the results depend on the processing

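Of 119 alternative values of the 10 main results, 99 stayed within the counting interval of the value reported. Staying within it did not mean that an alternative's own interval included 1, as the body ratios given earlier show. Of these 99, 5 crossed 1. The galactose body ratio was 0.986 with aligned intervals and 0.993 beyond 1 kb of tRNA genes, the galactose upstream ratio 0.982 without RPL38, the dextrose upstream ratio 0.977 with 96 bases and the large to small subunit body ratio 1.02 with RPL15A. No paired analysis was possible because each medium had 1 library, and leaving out a replicate was likewise not possible. For the members' galactose body ratio of 1.07, counting without a limit on tRNA distance gave 0.851, adding RPL15A gave 1.17 and mapping score 60 gave 0.932. The galactose upstream ratio of 1.01 became 0.871 with intervals of 96 bases, 1.14 with 50 to 95 bases, 0.932 beyond 1 kb of tRNA genes, 0.586 with no limit, 0.845 over 500 bp and 0.904 outside genes. With no limit the dextrose upstream ratio was 0.757 and the galactose large to small subunit upstream ratio 0.863, which was 1.28 with 96 bases. The A to B body ratio was 1.27 with 96 bases and 1.18 with RPL15A added, and the A to B upstream ratio 0.593 with 96 bases. The single-copy to paralog ratio was 2.82 with 96 bases and 1.70 with 50 to 95 bases. The share within 500 bp was 40.5% with 96 bases, where other genes had 59.0%, and 41.6% with no limit. Outside genes it was 59.97%, on the other side of 50%, where other genes had 73.2%. Counting the 3′ end, the ratio from 250 bp to just over 100 bp upstream was 1.00. From 100 to 1 bp upstream the ratio was 0.650 with 96 bases, 0.623 with the 3′ end and 0.836 with no limit. The cause of these changes was not tested. In dextrose, 56 body and 99 upstream sites cannot resolve single genes.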
